A study of Mus musculus with 18 samples.

Results

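A set of 9 genes of the segmentation clock and of the Hes and Hey families were described across 2 regions of the mouse embryo and 2 genotypes. They were chosen by name: Hes7, Lfng, Nrarp, Hes1, Hes5, Hes6, Hey1, Hey2 and Heyl, which are 9 of the 53465 genes in the deposited table. Earlier results of these data were known when they were chosen, so their shares beside those of all genes are descriptions only. RNA was sequenced from 9 embryos at embryonic day 9 with 20 to 24 somites, each cut into an anterior and a posterior piece, giving 18 libraries. The labels do not name the embryo of a piece, so pieces were matched on genotype, sex label and somite number. The posterior piece held the axial bud and the 10 to 12 youngest somites, and the anterior piece held the older somite-bearing axis without the head. The 5 control embryos carry the genotype label Control, and the labels do not say which alleles they had or whether they carried Cre. The 4 double knockout (DKO) embryos had Meis1 and Meis2, which encode TALE homeodomain transcription factors, conditionally deleted with Delta1Cre, a Cre driver named for Delta1 (Dll1). Deletion is limited to cells that expressed the driver or descend from them, and the cell types reached are not given in the labels. The aim stated by the submitters was to find Meis target genes in anterior-posterior skeletal patterning, with early patterning told apart from later somite differentiation.

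Somites bud off the presomitic mesoderm at a regular pace set by the segmentation clock, in which transcripts of cyclic genes rise and fall once for each somite. Notch receptors, activated by Delta and Jagged ligands, release an intracellular domain that binds RBPJ on DNA and turns on target genes. Hes7 encodes the bHLH repressor at the core of the clock, which represses its own gene and Lfng. Lfng encodes a glycosyltransferase that modifies Notch receptors, and Nrarp encodes an ankyrin repeat protein that dampens Notch signalling. Hes1 and Hes5 are Notch effectors that hold neural progenitors undifferentiated by repressing proneural genes, while Hes6 counteracts Hes1 and favours differentiation. Hey1, Hey2 and Heyl encode related repressors known from the vasculature, heart and somites.

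The sequences upstream of the start site are shown for the clock and feedback genes and for Hes5 and Hey2, because they hold or lack the core letters of the site that RBPJ binds. RefSeq windows (GRCm38.p6) were found for 6 of the 9 genes, and the 250 bases before the start were searched. Hes1, Hey1 and Heyl had no window. The starts are those of RefSeq, and the Hes7, Lfng and Hey2 windows reach a little into the gene coordinates given in later paragraphs. Capitals mark GTGGGAA or its reverse complement TTCCCAC. The windows are chr11:69120203-69120452 for Hes7, chr5:140607091-140607340 for Lfng, chr2:25180508-25180757 for Nrarp and chr4:154960673-154960922 for Hes5, all on the plus strand, and chr10:30842784-30843033 on the minus strand for Hey2. Each is printed 5′ to 3′ on the strand of its gene.
Hes7: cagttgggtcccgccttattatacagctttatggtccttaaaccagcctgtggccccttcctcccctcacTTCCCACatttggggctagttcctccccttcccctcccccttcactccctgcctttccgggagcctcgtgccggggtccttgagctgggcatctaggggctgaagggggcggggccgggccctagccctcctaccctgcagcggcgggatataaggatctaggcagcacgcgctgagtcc
Lfng: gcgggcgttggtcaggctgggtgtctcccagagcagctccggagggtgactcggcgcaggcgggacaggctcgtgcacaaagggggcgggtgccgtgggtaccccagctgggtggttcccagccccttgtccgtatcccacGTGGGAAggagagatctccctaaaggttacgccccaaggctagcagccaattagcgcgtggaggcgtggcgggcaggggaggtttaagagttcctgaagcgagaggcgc
Nrarp: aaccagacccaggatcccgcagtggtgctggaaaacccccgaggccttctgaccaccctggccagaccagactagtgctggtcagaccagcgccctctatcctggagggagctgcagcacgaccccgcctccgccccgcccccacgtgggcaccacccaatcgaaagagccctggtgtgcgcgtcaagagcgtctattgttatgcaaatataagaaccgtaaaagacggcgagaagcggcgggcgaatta
Hes5: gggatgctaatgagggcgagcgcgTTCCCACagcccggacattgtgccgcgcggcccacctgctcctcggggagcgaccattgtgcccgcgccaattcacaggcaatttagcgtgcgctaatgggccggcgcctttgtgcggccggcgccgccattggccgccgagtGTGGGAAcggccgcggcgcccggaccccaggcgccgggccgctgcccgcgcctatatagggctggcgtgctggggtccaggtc
Hey2: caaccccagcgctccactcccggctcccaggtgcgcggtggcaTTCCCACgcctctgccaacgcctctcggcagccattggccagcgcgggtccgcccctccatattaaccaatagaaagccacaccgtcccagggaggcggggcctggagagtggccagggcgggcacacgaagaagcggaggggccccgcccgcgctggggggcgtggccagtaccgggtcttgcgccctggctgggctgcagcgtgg
The core was present on either strand in 4 of the 6 genes with a window, Hes7, Lfng, Hes5 and Hey2, and Hes5 held it in 2 places. It was present in 1779 of all 32851 windows of this length (5.42%). In the Lfng window the core overlaps an E box, CACGTG, which the Nrarp window and 6.02% of all windows also hold. Neither the Nrarp window nor the 2 Hes6 windows held the core. The letters TGACAG, a core of the Meis site, were present on either strand in the upstream Hes6 window only, and in 15.9% of all windows. These matches describe letters and not binding.

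Libraries held 12.7 to 38.2 megacounts. Levels are given as CPM, counts per megacount after TMM scaling, for which 3 counts correspond to 0.0791 to 0.233 CPM. Meis1 ranged from 113 to 135 CPM in anterior controls and from 89.8 to 111 CPM in anterior DKO pieces, and from 59.6 to 99.9 CPM and 46.7 to 72.0 CPM in the posterior groups. Meis2 ranged from 177 to 203 and 130 to 157 CPM anteriorly, and from 117 to 162 and 91.2 to 116 CPM posteriorly. Neither gene passed the test in either region (edgeR adjusted p = 0.123 and 0.0522 anteriorly, 0.336 and 0.196 posteriorly), and gene-level counts do not show whether a deleted exon was lost. All 8 presomitic mesoderm markers passed the test as higher in posterior than anterior control pieces (median log2 fold change 5.32), beside 12.1% of all genes. Only 3 of the 8 had enough counts to be tested within the anterior libraries. Their list was chosen with earlier results of these data known, so this describes the pieces and is no independent check. Control embryo 1 is labelled female, but its libraries had summed Y-linked transcripts at 151 and 162 CPM and Xist at no more than 0.34 CPM, so results that turn on this embryo are also given without it. In tissue pieces, fewer cells of a type and less RNA per cell cannot be told apart.

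Compared per kilobase of annotated exon, the levels of the 9 genes had a different order in each region. In anterior controls Hes5 was highest at 38.0 ± 2.94 CPM per kb (SD, n = 5), then Nrarp at 33.4 ± 5.93, Lfng at 22.0 ± 3.74, Hes6 at 20.1 ± 1.66, Hes1 at 14.5 ± 0.943, Hey1 at 9.84 ± 0.817, Heyl at 4.53 ± 1.05, Hey2 at 1.91 ± 0.293 and Hes7 at 0.152 ± 0.0709. The libraries of neighbours overlapped from Hes5 down to Hes6 and were separate below that. In posterior controls Nrarp led at 44.3 ± 9.19 CPM per kb, apart from the rest. Hes1 (22.2 ± 3.91), Hes6 (17.9 ± 1.28), Hey1 (16.9 ± 2.17), Lfng (16.8 ± 4.24), Hes5 (12.8 ± 1.60) and Hes7 (8.79 ± 2.09) followed, each overlapping its neighbour, with Hey2 (4.21 ± 0.838) and Heyl (2.33 ± 0.399) below and separate. Hes5 was therefore the top gene anteriorly and the sixth posteriorly, and Hes7 moved up from the last place.

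**Figure D1:**
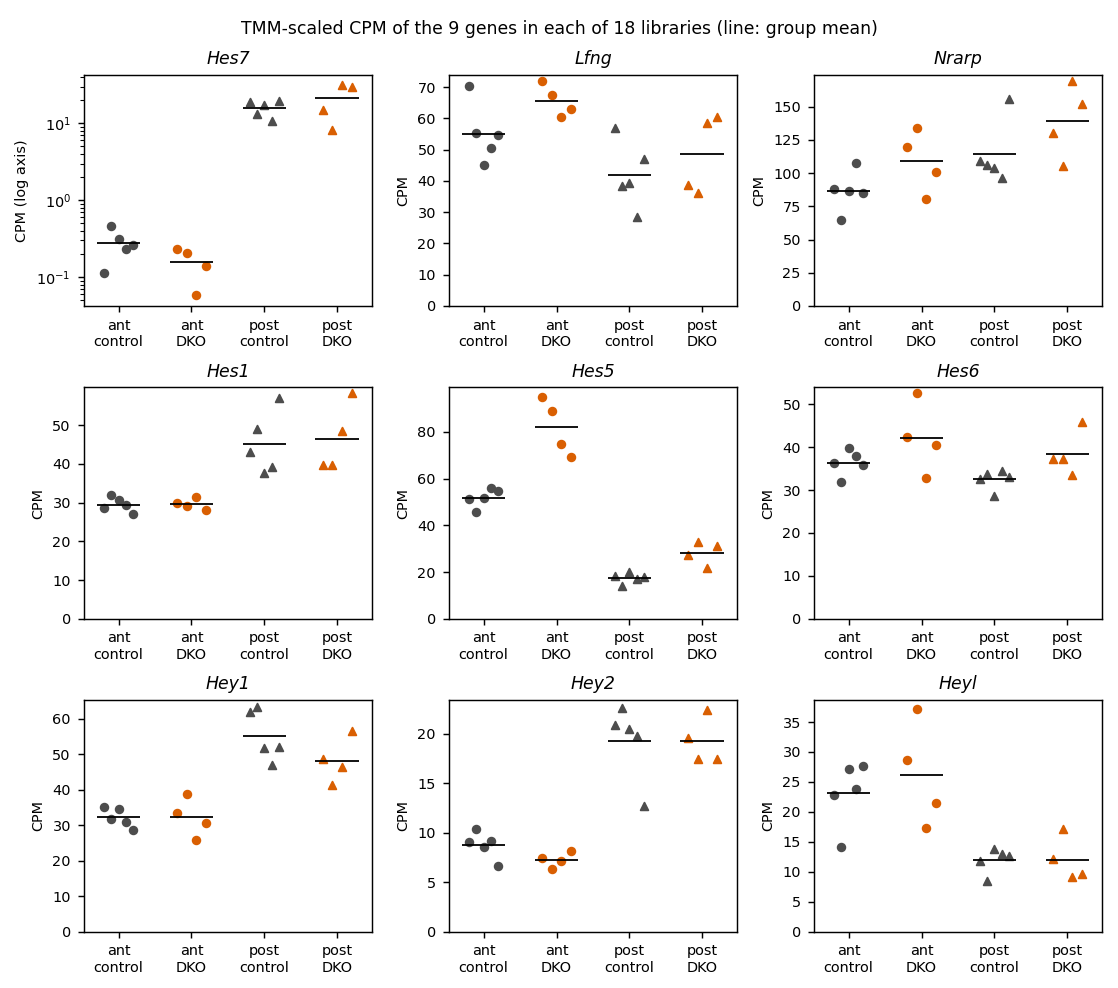
Level of each of the 9 genes in every library, in TMM-scaled CPM, by region and genotype; each point is 1 library, and the Hes7 panel has a log axis. Hes7 lies below 0.5 CPM in every anterior library and above 8 CPM in every posterior library, and Hes5 is higher in DKO than in control libraries of both regions.

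The difference between posterior and anterior pieces was tested in 10 control and in 8 DKO libraries. Of the 9 genes, 6 passed the test in controls, 4 higher and 2 lower posteriorly, against 25.4% of the 15294 genes tested (12.1% higher and 13.3% lower). In DKO embryos the same 6 passed in the same directions, against 18.5% of 15777 genes (8.76% and 9.70%). Hes7, Hes1, Hey1 and Hey2 were higher posteriorly and Hes5 and Heyl were lower. No library of one region overlapped the other for 6 of the 9 genes in controls and for 7 in DKO embryos, against 20.1% and 23.5% of all genes. The median log2 fold change of the 9 genes was 0.41 in controls and 0.35 in DKO, beside −0.01 and 0.01 over all genes tested.

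Hes7 (ENSMUSG00000023781, chr11:69120404-69124055, plus strand) is the clock repressor, and it was close to the floor in anterior pieces. Its posterior control levels were 19.0, 13.4, 17.3, 10.6 and 19.3 CPM, and the 4 DKO levels were 14.8, 8.31, 31.5 and 29.9 CPM. Anterior libraries held only 1 to 12 counts each, which correspond to 0.113, 0.465, 0.311, 0.230 and 0.259 CPM in controls and 0.229, 0.206, 0.0577 and 0.138 CPM in DKO. No anterior library came near any posterior one. Summed counts gave a posterior to anterior ratio of 54.0 in controls (26 against 1980 counts, exact 95% interval 36.8 to 82.9) and of 114 in DKO (17 against 1802 counts, 71.2 to 197), and these intervals cover counting error only. The log2 difference in controls was 5.76 (SE 0.281, edgeR adjusted p = 4.67e-08) and in DKO 6.93 (SE 0.565, edgeR adjusted p = 2.32e-05). Hes7 overlaps 9130213A22Rik on the other strand, which averaged 1.17 CPM in posterior controls and 1.16 CPM in posterior DKO.

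Lfng (ENSMUSG00000029570, chr5:140607320-140615545, plus strand) was present in both regions, unlike Hes7. Anterior control levels were 70.3, 55.2, 45.0, 50.7 and 54.7 CPM, and posterior ones 56.9, 38.4, 39.2, 28.5 and 47.1 CPM. Anterior DKO levels were 71.9, 67.4, 60.6 and 63.1 CPM, and posterior ones 38.8, 36.3, 58.4 and 60.4 CPM. Lfng was lower posteriorly within each of the 9 embryos, by 0.20 to 0.83 on the log2 scale in controls and by 0.05 to 0.89 in DKO. The difference of −0.39 (SE 0.163) in controls and −0.44 (SE 0.161) in DKO missed the threshold (edgeR adjusted p = 0.102 and 0.0897). With the embryo as a block the control difference of −0.42 passed (edgeR adjusted p = 0.00297), and without control embryo 1 it was −0.43 and passed (edgeR adjusted p = 0.0488). The DKO difference passed with DESeq2 (adjusted p = 0.0426), with no filter on low counts (edgeR adjusted p = 0.0414) and without DKO embryo 4 (edgeR adjusted p = 0.0499).

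Nrarp (ENSMUSG00000078202, chr2:25180758-25183339, plus strand) was the highest of the 9 genes per length in the posterior pieces. Anterior control levels were 87.8, 64.4, 86.3, 108 and 85.2 CPM and posterior ones 109, 106, 104, 96.0 and 156 CPM. Anterior DKO levels were 120, 134, 80.8 and 101 CPM and posterior ones 130, 105, 169 and 152 CPM. It was higher posteriorly in 4 of 5 control and 3 of 4 DKO embryos, and the difference of 0.41 (SE 0.143) in controls and 0.35 (SE 0.173) in DKO missed the threshold (edgeR adjusted p = 0.0559 and 0.21). With the embryo as a block the control difference of 0.40 passed (edgeR adjusted p = 0.0249), as it did with DESeq2 (adjusted p = 0.0124), with no filter on low counts (edgeR adjusted p = 0.03) and without control embryo 4 (edgeR adjusted p = 0.0228). Leaving out 1 embryo moved the DKO difference between 0.13 (without DKO 3) and 0.58 (without DKO 2), and it passed without DKO 2 (edgeR adjusted p = 0.037). Nrarp shares 2559 bases with Gm38287 on the other strand, which had 0 to 8.22 CPM, so the split of reads between them is uncertain. Gm38287 was at 0 in every anterior DKO library and at 0 to 6.68 CPM in anterior controls (mean 4.82). Posteriorly it averaged 2.06 CPM in DKO and 1.84 CPM in controls. Its part in the Nrarp values, those of the DKO comparison included, was not tested.

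**Figure D2:**
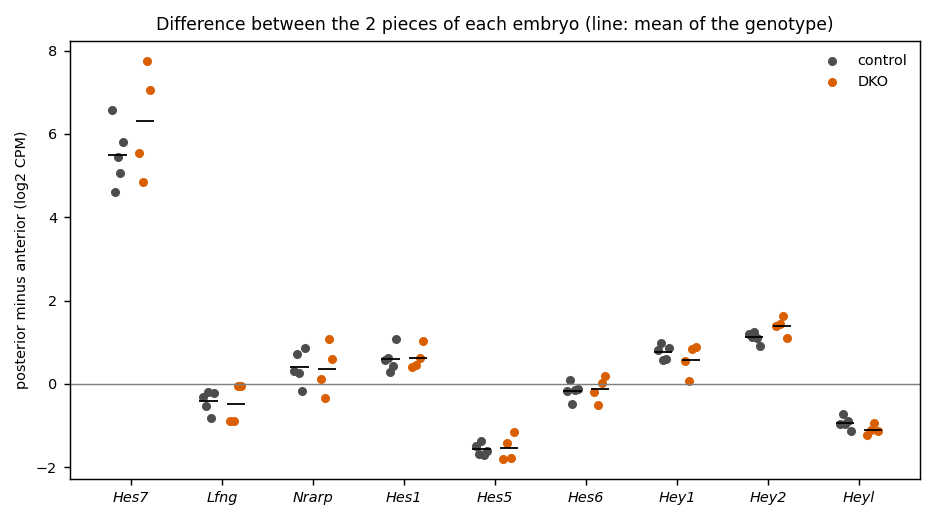
Posterior minus anterior log2 level of each gene within each of the 9 embryos; each point is 1 embryo, and values above 0 are higher posteriorly. Hes7 lies far above 0 in every embryo, Hes1, Hey1 and Hey2 above 0, and Hes5, Heyl and Lfng below 0.

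Among the Hes genes, Hes1 (ENSMUSG00000022528, chr16:30064384-30067796, plus strand) and Hes5 (ENSMUSG00000048001, chr4:154960923-154962371, plus strand) differed between regions in opposite directions. Hes1 was 28.7, 32.0, 30.6, 29.3 and 27.0 CPM in anterior controls and 43.0, 49.1, 37.6, 39.3 and 57.0 CPM in posterior controls. It was higher posteriorly in 9 of 9 embryos, with a log2 difference of 0.61 (SE 0.105, edgeR adjusted p = 0.000873) in controls and 0.65 (SE 0.120, edgeR adjusted p = 0.00336) in DKO. Hes5 was 51.3, 45.6, 51.6, 56.0 and 54.6 CPM in anterior controls and 18.4, 14, 19.9, 17.1 and 18 CPM in posterior controls, so that the regions were far apart. Its log2 difference was −1.57 (SE 0.0895, edgeR adjusted p = 1.56e-07) in controls and −1.54 (SE 0.141, edgeR adjusted p = 4.92e-05) in DKO. Of 15 neural tube progenitor markers, 14 were lower and 1 higher in posterior control pieces, with a median of −0.81, beside 13.3% lower and 12.1% higher of all genes, and their part in the Hes5 difference was not tested. Hes6 (ENSMUSG00000067071, chr1:91411483-91414038, minus strand) was 31.8 to 39.8 CPM in anterior and 28.6 to 34.4 CPM in posterior controls, and its difference of −0.16 (SE 0.0708) did not pass (edgeR adjusted p = 0.124). Without control embryo 2 it was −0.22 and passed (edgeR adjusted p = 0.0471), and without control embryo 3 it was −0.09.

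Of the Hey genes, Hey1 and Hey2 were higher posteriorly and Heyl lower. Hey1 (ENSMUSG00000040289, chr3:8663359-8667256, minus strand) was 35.1, 31.7, 34.5, 30.9 and 28.6 CPM in anterior and 61.8, 63.3, 51.7, 46.9 and 51.9 CPM in posterior controls, a log2 difference of 0.78 (SE 0.0889, edgeR adjusted p = 3.34e-05). Hey2 (ENSMUSG00000019789, chr10:30832359-30842801, minus strand) was 9.06, 10.4, 8.56, 9.14 and 6.67 CPM in anterior and 20.9, 22.6, 20.5, 19.8 and 12.7 CPM in posterior controls, a difference of 1.14 (SE 0.154, edgeR adjusted p = 0.000142). Heyl (ENSMUSG00000032744, chr4:123233556-123249875, plus strand) was 22.9, 14.2, 27.1, 23.9 and 27.6 CPM in anterior and 11.8, 8.51, 13.8, 12.9 and 12.6 CPM in posterior controls, a difference of −0.95 (SE 0.176, edgeR adjusted p = 0.00151). The regions did not overlap for any of the 3 in controls. In DKO embryos the differences were 0.58 (SE 0.129), 1.40 (SE 0.121) and −1.11 (SE 0.262), with edgeR adjusted p = 0.00997, 3.32e-05 and 0.0136. Without DKO embryo 1 Hey1 and Heyl no longer passed there (edgeR adjusted p = 0.0653 and 0.0899), nor did Hey1 without DKO embryo 4 (0.0579). Summed endothelial markers were 382 to 428 CPM in anterior and 249 to 401 CPM in posterior controls, with 0 of 12 higher and 4 lower posteriorly, beside 12.1% and 13.3% of all genes. Neuron markers were higher in 2 of 10 and lower in 8. Their part in the Hey differences was not tested.

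The effect of the double deletion was then compared in each region. In anterior pieces 8 of the 9 genes could be tested, since Hes7 was too low, and 1, Hes5, passed, against 6 of all 15238 genes tested (0.0394%, and 0.0197% higher). In posterior pieces all 9 were tested and 0 passed with edgeR, against 2 of 15936 genes (0.0126%). At an unadjusted p below 0.05 there were 2 of 8 and 2 of 9, beside 1983 of 15238 and 1754 of 15936 genes, and DESeq2 called Hes5 posteriorly. The log2 fold change was above 0 for 7 of 8 genes anteriorly (median 0.20), beside 50% of all genes (median 0.00), and for 7 of 9 posteriorly (median 0.20), beside 52.4% (median 0.01). This count takes in Hes1 and Hey1 anteriorly, which were at 0.00, and the signs of Hes1, Hey1 and Heyl turned under alternatives such as leaving out 1 embryo. The exceptions were Hey2 anteriorly, and Hey1 and Hey2 posteriorly. By this matching both regions come from the same embryos, so they are not independent samples.

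Hes5 was higher in DKO than in control embryos in both regions, and was past the threshold in the anterior piece. The anterior controls averaged 51.8 CPM with an SD of 4.01 (n = 5). The anterior DKO pieces averaged 82.1 CPM with an SD of 12 (n = 4), where the libraries had 95, 89.1, 74.9 and 69.3 CPM. No DKO library overlapped the controls, which held for 5.07% of all genes (2.45% higher). The log2 fold change was 0.66 (SE 0.0928, edgeR adjusted p = 0.0455). Posterior levels averaged 17.5 ± 2.18 CPM in controls and 28.2 ± 5.0 CPM in DKO, with 27.3, 33.0, 21.6 and 31.0 CPM in the DKO libraries. Again no library overlapped (4.29% of all genes, 2.16% higher), and the log2 fold change of 0.69 (SE 0.135) missed the threshold (edgeR adjusted p = 0.196). The anterior call was lost on leaving out any of 7 of the 9 embryos (each of the 5 controls, DKO 1 or DKO 3), with edgeR adjusted p from 0.0514 to 0.162 in those 7, and the log2 fold change ranged from 0.58 to 0.74 over all 9. Without control embryo 1 the edgeR adjusted p was 0.103. Of all 17 alternatives run, 10 kept the anterior call and 7 lost it. It held with DESeq2 (adjusted p = 4.87e-08) and, close to the threshold, with upper-quartile scaling (edgeR adjusted p = 0.0488).

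Markers of neural tube progenitors were measured beside Hes5. Their summed level was 1370 to 1610 CPM in anterior controls and 1620 to 1810 CPM in anterior DKO pieces, and 1060 to 1190 and 1230 to 1250 CPM posteriorly. All 15 were above 0 in both comparisons (median log2 fold change 0.22 and 0.29), 0 passed, and 9 and 3 had an unadjusted p below 0.05. For this and the lists that follow, 0.0394% and 0.0126% of all genes passed, 1983 of 15238 and 1754 of 15936 had such a p, and 50% and 52.4% lay above 0. Set against this sum, Hes5 amounted to 3.47% ± 0.320 in anterior controls (3.01% to 3.78%) and 4.75% ± 0.728 in anterior DKO (4.01% to 5.50%). Posteriorly the shares were 1.56% ± 0.245 (1.24% to 1.88%) and 2.27% ± 0.387 (1.75% to 2.64%). The share did not overlap between genotypes anteriorly and did overlap posteriorly. Summed levels of 11 somite markers were 398 to 467 CPM in controls and 295 to 377 CPM in DKO anteriorly, and 425 to 577 and 236 to 436 CPM posteriorly. Only 2 and 1 of the 11 lay above 0 (median −0.24 and −0.51), 0 passed, and 8 and 5 had an unadjusted p below 0.05. No defining gene of either list was at 0 in every library of a group. Neural crest markers lay above 0 in 8 of 8 cases anteriorly (median 0.27, 5 with an unadjusted p below 0.05) and in 6 of 7 posteriorly (median 0.09, 1 with such a p). Neuron markers lay above 0 in 8 of 10 cases anteriorly (median 0.19, 0 with such a p) and in 6 of 10 posteriorly (median 0.12, 3 with such a p). Primitive erythroid markers lay above 0 in 0 of 10 cases anteriorly (median −0.67, 0 with such a p) and in 10 of 10 posteriorly (median 0.52, 7 with such a p). None of these passed, and the part of any of these lists in the Hes5 difference was not tested. Hes5 also overlaps Gm20421 on the other strand by 756 bases, which averaged 2.29 and 3.39 CPM anteriorly and 1.04 and 1.30 CPM posteriorly.

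**Figure D3:**
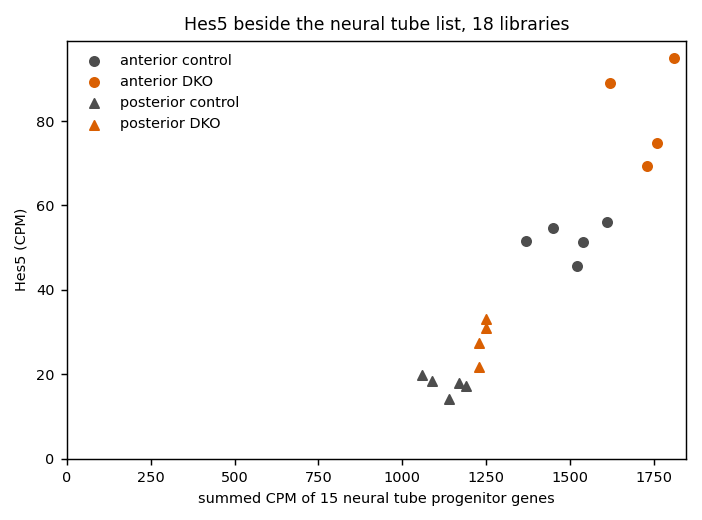
Hes5 level in CPM against the summed CPM of 15 neural tube progenitor genes, for 18 libraries by region and genotype; each point is 1 library. The anterior DKO libraries lie above the anterior controls on both axes, and the posterior DKO libraries above the posterior controls on both axes.

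The other 8 genes did not pass in either region. Lfng had log2 fold changes of 0.25 (SE 0.107) anteriorly and 0.20 (SE 0.207) posteriorly, with edgeR adjusted p = 0.358 and 0.696. Leaving out 1 embryo moved the posterior value of Lfng between 0.07 (without DKO 4) and 0.34 (without control embryo 1), and the anterior one between 0.19 (without control 3) and 0.35 (without control 1). Nrarp had 0.34 (SE 0.154) and 0.28 (SE 0.159), with edgeR adjusted p = 0.385 and 0.501, and leaving out 1 embryo gave 0.23 (without DKO 2) to 0.46 (without DKO 3) anteriorly and 0.18 (without DKO 3) to 0.42 (without control 5) posteriorly. Hes7 had 0.41 (SE 0.342, edgeR adjusted p = 0.628) posteriorly, where the control libraries lay inside the range of the DKO libraries, and leaving out 1 embryo moved it between 0.15 (without DKO 3) and 0.68 (without DKO 2). Hes1 had 0.00 (SE 0.0642) and 0.04 (SE 0.147), with edgeR adjusted p = 0.988 and 0.918, and DKO levels of 28.2 to 31.5 CPM anteriorly and 39.6 to 58.2 CPM posteriorly. Hes6 had 0.21 (SE 0.115) and 0.24 (SE 0.0985), with edgeR adjusted p = 0.468 and 0.445, and DKO levels of 32.9 to 52.7 and 33.5 to 45.9 CPM. Leaving out 1 embryo moved Hes6 between 0.09 (without DKO 2) and 0.31 (without DKO 3) anteriorly, and between 0.14 (without DKO 4) and 0.30 (without DKO 3) posteriorly. The Hey genes had 0.00 (SE 0.107) and −0.20 (SE 0.112) for Hey1, −0.27 (SE 0.131) and −0.01 (SE 0.153) for Hey2, and 0.18 (SE 0.230) and 0.02 (SE 0.196) for Heyl, with edgeR adjusted p between 0.416 and 0.993. Their DKO levels lay within 25.9 to 38.9 CPM anteriorly and 41.2 to 56.5 CPM posteriorly for Hey1, 6.38 to 8.19 and 17.5 to 22.4 CPM for Hey2, and 17.3 to 37.2 and 9.08 to 17.2 CPM for Heyl. Leaving out 1 embryo moved posterior Hey1 between −0.29 (without DKO 4) and −0.13 (without DKO 2). Anterior Hey2 moved between −0.35 (without control 5) and −0.20 (without control 2).

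**Figure D4:**
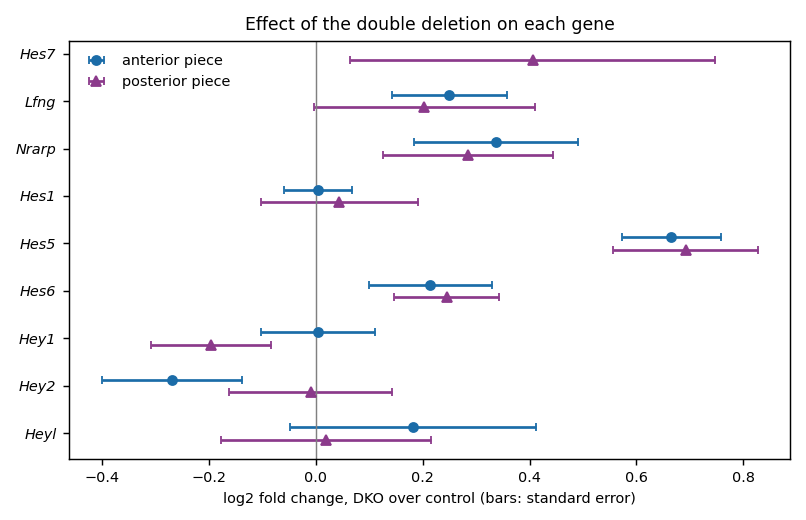
Log2 fold change of DKO over control for each gene in the anterior (circles) and posterior (triangles) pieces, with bars for the standard error; Hes7 was not tested anteriorly. Hes5 lies at 0.66 and 0.69, and the other genes lie between −0.27 and 0.41.

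Whether the effect of the deletion differed between regions was tested with the interaction of region and genotype over 18 libraries. None of the 9 genes passed with edgeR and 0 of the 9 had an unadjusted p below 0.05, beside 0 of 16428 genes past the threshold (0%) and 567 with an unadjusted p below 0.05. DESeq2 called 10 genes. Hes7 had the largest difference, 1.17 (SE 0.769, edgeR adjusted p = 0.999), which ranged from 0.72 (without DKO 3) to 1.59 (without DKO 1), and that of Hes5 was 0.03. The Hes7 value rests on anterior libraries near the floor, with 2 to 12 counts in controls and 1 to 8 in DKO. Hes7 was too low there to be tested in the anterior piece alone.

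Hes7 was the most variable of the 9 genes among posterior DKO libraries, with a coefficient of variation of 53.9%, beside 23.8% in posterior controls. The difference in spread was not tested. DKO embryos 3 and 4, at 20 and 23 somites, had 31.5 and 29.9 CPM, and embryos 1 and 2, at 22 and 24 somites, had 14.8 and 8.31 CPM. Lfng in these embryos was 58.4 and 60.4 CPM, then 38.8 and 36.3 CPM, and Nrarp 169 and 152 CPM, then 130 and 105 CPM. The 3 genes were thus high or low in the same DKO embryos. This relation was looked for after the values had been seen, so the correlations over these same libraries describe it and carry no test. Over the 9 posterior libraries the log2 levels of Hes7 and Lfng had Pearson's r of 0.87 and Spearman's rho of 0.95, among 10 relations computed. Hes7 and Nrarp had r of 0.796 and rho of 0.817. Without the 2 libraries farthest from the median Hes7 level on the log2 scale, DKO 2 and 3, r was 0.918 for Lfng and 0.731 for Nrarp. DKO 3 and 4 stand apart from the other 7 libraries in Hes7, and without both r was 0.741 for Lfng (rho 0.929) and 0.538 for Nrarp (rho 0.643).

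Of the other members, Hes1 had r of 0.626 with Hes7 and Heyl −0.645, and Hes5, Hes6, Hey1 and Hey2 had r of 0.0394, 0.155, 0.348 and 0.0112. Without DKO 2 and 3 r was 0.639 for Hes1, −0.209 for Heyl, 0.628 for Hes5, 0.491 for Hes6, 0.344 for Hey1 and −0.408 for Hey2. Without DKO 3 and 4 it was 0.411, −0.383, −0.446, −0.616, 0.658 and −0.165 in the same order. A fit of every gene on log2 Hes7 with genotype as a term, which reads the relation within genotypes, gave slopes of 0.50 (SE 0.102) for Lfng and 0.36 (SE 0.0892) for Nrarp. It uses the same 9 libraries, DKO 3 and 4 included, and is no independent support. No gene passed in this fit (457 of 15935, 2.87%, had an unadjusted p below 0.05), and the edgeR adjusted p was 1 for both. The summed presomitic mesoderm markers had r of 0.373 with Hes7, which was −0.334 without DKO 2 and 3 and −0.0759 without DKO 3 and 4. The library total had r of −0.491, then −0.357 and −0.35.

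**Figure D5:**
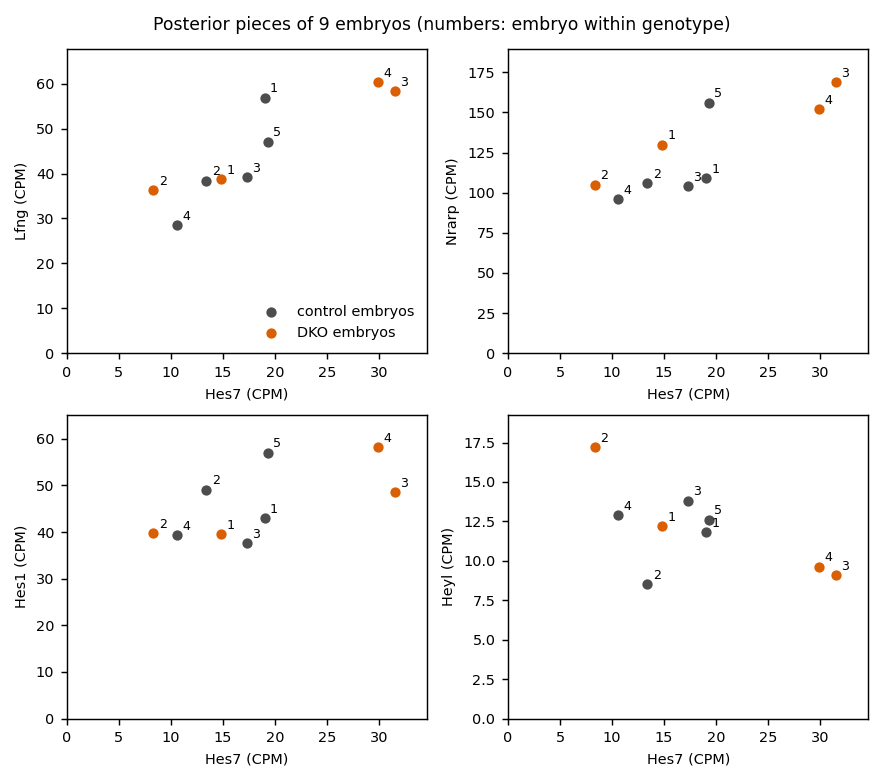
Lfng, Nrarp, Hes1 and Heyl levels against Hes7 level in the 9 posterior libraries, all in CPM; each point is 1 embryo, by genotype. Lfng and Nrarp are high in the embryos where Hes7 is high, with r of 0.87 and 0.796 on log2 levels, and DKO embryos 3 and 4 lie apart at the right.

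The wider pathway was read from fixed lists of its parts. In the DKO comparisons 0 genes passed in any of the 6 lists in either region, beside 0.0394% and 0.0126% of all genes. Anteriorly 6 of 7 presomitic and segment boundary genes (median −0.22) and 6 of 17 Wnt and FGF genes had an unadjusted p below 0.05. So did 5 of 11 Notch ligands and receptors, 4 of 13 Hes partners and 2 of 31 processing genes, beside 1983 of 15238 genes. In the same order the posterior counts were 4 of 15, 1 of 18, 1 of 10, 1 of 13 and 3 of 32, beside 1754 of 15936 genes. Of 11 Notch ligands and receptors, 8 lay above 0 anteriorly (median log2 fold change 0.12) and 3 of 10 posteriorly (median −0.06), beside 50% and 52.4% of all genes. The ligand gene Dll1, for which the Cre driver is named, was at 59.1 to 68.6 CPM in anterior controls and 73.6 to 99.4 CPM in anterior DKO, a log2 fold change of 0.42 (SE 0.0841, edgeR adjusted p = 0.0881), and posteriorly it had 0.14 (SE 0.107, edgeR adjusted p = 0.586). A930024N18Rik, antisense to Dll1 and named after its values were seen, was higher in posterior DKO than control pieces by 3.24 on the log2 scale (edgeR adjusted p = 0.0014). Proneural genes, the targets that Hes proteins repress, lay above 0 in 7 of 8 cases anteriorly (median 0.28, 2 with an unadjusted p below 0.05) and in 7 of 7 posteriorly (median 0.38, 0 with such a p), beside 50% and 52.4% of all genes. Their summed anterior level was 163 and 193 CPM in DKO 1 and 2, but 112 and 118 CPM in DKO 3 and 4, inside the control range of 87 to 127 CPM. Posteriorly it was 41.6 and 53.5 CPM in DKO 1 and 2 and 20.4 and 33.1 CPM in DKO 3 and 4, beside 16.2 to 36.4 CPM in controls. Neurog2 had the smallest anterior p of these, with 0.45 (SE 0.0968, edgeR adjusted p = 0.103).

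Between regions more of the listed genes passed, beside 25.4% of all genes in controls (12.1% higher and 13.3% lower). In controls 14 of 15 presomitic mesoderm and segment boundary genes were higher posteriorly and 1 lower, led by Cdx4 (9.57), Msgn1 (9.32), Cdx2 (7.75) and Tbx6 (6.53), with Tbx18 lower (−0.52). Of 18 cyclic or feedback genes of the Wnt and FGF pathways 15 were higher and 0 lower, led by Dkk1 (3.51), Fgf8 (2.95), Spry4 (2.38) and Lef1 (1.61). Notch ligands and receptors were higher in 6 of 11 and lower in 1, with Dll3 at 1.87, Dll1 at 1.05, Notch4 at 0.90 and Jag1 at 0.48. Of 31 genes of Notch processing and the nuclear complex 3 were higher and 6 lower, a share near that of all genes, among them Maml2 (0.59), Dtx4 (−0.99), Kat2b (−0.99) and the Fringe gene Mfng (−0.77). The proneural genes were lower in 7 of 8, among them Insm1 at −3.64, Neurod1 at −3.26 and Neurog1 at −3.01. Of 13 Hes partners and other Hes-type or Id factors 3 were higher and 2 lower, among them Hes3 (1.5) and the corepressor gene Tle4 (0.86) higher, and Id3 (−0.52) and Tle1 (−0.34) lower. In DKO embryos 11 of 14, 14 of 18, 3 of 11, 1 of 32, 0 of 8 and 5 of 13 genes of these lists were higher, in the same order. The counts lower were 0, 0, 1, 6, 7 and 2, beside 8.76% higher and 9.70% lower of all genes.

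The genes most like each of the 9 over the 18 libraries were taken by Pearson's r of log2 CPM among 11817 genes, as a description that the region difference dominates. Hes7 was most like Tbx6 (0.985), Efna3 (0.984) and Fgf18 (0.983). Hes5 was most like Npdc1 (0.983), Adgrg1 (0.976) and Ackr3 (0.973), and Heyl like Scrt2 (0.973), Lhx3 (0.970) and Kif5c (0.966). Hey2 was most like Mtus1 (0.967), Hey1 like Kdm1a (0.949) and Hes1 like Shf (0.936). Lower values were found for Nrarp (Mnx1, 0.847), Hes6 (Tuba1a, 0.846) and Lfng (Sox8, 0.814).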

How the data were processed

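RNA-seq libraries (poly(A), NEBNext, single-end 61 bp) were made from 18 embryo pieces, per the labels. The authors deposited expected counts per Ensembl gene, made with CASAVA, cutadapt and RSEM on GRCm38 per the submitters' processing notes; the table is named for GRCm38 release 91, and tool versions, aligner and use of strand are not given in the sources used here. Of 53465 identifiers, 53360 were found in GENCODE M21 and 105 were not. Rounded counts went into edgeR 4.0.16 under R 4.3.3: filterByExpr (minimum count 10, minimum total 15), TMM, quasi-likelihood tests without blocks, and Benjamini-Hochberg adjustment over all genes tested, called at 0.05. Standard errors (SE) are the absolute log2 fold change over √F. A prior count of 2 went into log2 CPM. The code was tested on simulated data. The members and the lists were chosen with earlier results of these data known. All 9 members are named, and list genes by size of change if called and averaging 50 counts or more. Where no gene of a list was called, the gene of smallest p could be given, which was done for Dll1 and Neurog2 only. Such genes of the other lists are left out. A930024N18Rik falls outside this rule. An item that the rule names is not reported here. Alternatives were RLE and upper-quartile scaling, DESeq2 1.42.0, other filters, sex label and somite number as covariates, a single fit, the embryo as a block and leaving out each embryo. Pieces were matched to 9 embryos on genotype, sex label and somite number: their deviations from group means correlated at 0.256 to 0.57 in 9 same-embryo pairs and at −0.283 to 0.0916 in 32 other pairs. The Hes7 intervals come from counts pooled over embryos, so they cover counting error only, and the reads carry no molecular identifiers. P-values measure the spread between libraries of a group. Without a block, the tests between regions and of the interaction treated the 2 pieces of an embryo as independent.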

Additional observations from a re-analysis of the deposited data

Results flagged for a closer look

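Among 36 groups of 4 or 5 library values, 2 held a library far from the others, where chance gives about 1 in 20 groups. Both are posterior control 5. Its Hey2 level was 12.7 CPM beside 19.8 to 22.6 CPM in the other posterior controls, and its Nrarp level was 156 CPM beside 96.0 to 109 CPM. Summed heart markers were 31.1 CPM in this library and 3.96, 5.76, 17.7 and 5.04 CPM in posterior controls 1 to 4, and their part in these values was not tested.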

How the results depend on the processing

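The number of genes past the threshold depended on the method, while the region calls of Hes7, Hes1, Hes5 and Hey2 held in both genotypes under every alternative run. Against 6 genes anteriorly, DESeq2 gave 296, no filter 83, somite number as a covariate 84, the sex label as a covariate 71 and a single fit of 18 libraries 19, and leaving out an embryo gave 1 to 57. Against 2 posteriorly, DESeq2 gave 161, no filter 14, a mean of at least 50 counts 1, somite number 7 and the single fit 51, and leaving out an embryo 2 to 24. Leaving out a DKO embryo gave 1728 (without DKO 1) to 2550 genes for DKO regions against 2913. The interaction gave 10 genes with DESeq2 and 0 to 1 without an embryo.

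Among 649 values of the members, 584 kept direction and call, 14 passed and 10 no longer passed. Another 41, of 12 uncalled results, changed sign; for the anterior DKO effect of Hey1 this gave −0.012 with somite number and −0.008 with the sex label, for the posterior effect of Hey2 0 with upper-quartile scaling and 0.026 with the sex label, and for that of Heyl −0.008 with somite number and −0.018 with the sex label. On leaving out an embryo the anterior effects ranged from −0.027 to 0.035 for Hes1, −0.096 to 0.092 for Hey1 and −0.03 to 0.33 for Heyl, the posterior ones from −0.09 to 0.14 for Hes1, −0.125 to 0.051 for Hey2 and −0.20 to 0.13 for Heyl, and the DKO region difference of Hes6 from −0.249 to 0.011. The interaction ranged from −0.194 to 0.093 for Lfng, −0.28 to 0.18 for Nrarp, −0.11 to 0.16 for Hes1, −0.091 to 0.128 for Hes5 and −0.083 to 0.172 for Hes6. Posterior Hes5 passed with DESeq2 (adjusted p = 0.000615), somite number (edgeR adjusted p = 0.0207) and the single fit (0.024), and leaving out an embryo gave 0.61 to 0.80. The cause was not tested. With the embryo as a replicate block, Lfng (−0.42) and Nrarp (0.40) passed in the control regions, and no other call of the 9 genes changed. With 1 to 12 counts a library, the precision of Hes7 is low anteriorly.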
